A study of Homo sapiens with 10 samples.

Results

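The G2/M and mitosis genes comprised 46 listed genes that act from late G2 to the end of cell division, read across 10 arrays of human lung cell lines. Members were taken from a list of gene names, and each was read from the probe set that the platform annotation assigned to it alone, or, where several did so, from the one with the highest mean over all arrays. Of the 46, 45 were measured, out of 18279 genes with a probe set of their own. CENPA, the centromeric histone H3 variant, was present only on a probe set shared with SLC35F6, so no level was read for it.

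These genes form the transcript programme of dividing cells. In cycling cells their transcripts accumulate through S phase and G2, serve in mitosis and decline after division, and in cells that have left the cycle they are held low. The programme is known to depend on FOXM1, on B-MYB bound to the MuvB complex, and on NF-Y. In resting cells MuvB joins p130 and E2F4 in the DREAM complex, which represses many of the same promoters.

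Levels are log2 signals as deposited, so that 1 unit is a factor of 2 in signal. The AD32 4E-BP1 line, labelled sensitive and treated with 0.01% DMSO, had 1 array. AD32, labelled resistant and grown in 32 nM discodermolide, a natural product that stabilises microtubules, had 3 arrays. A549, a human lung adenocarcinoma line, had 2 arrays with 32 nM discodermolide, labelled senescent, and 4 arrays with 0.01% DMSO, labelled sensitive. The labels give no length of treatment, do not say whether AD32 or AD32 4E-BP1 is 1 clone, and call the numbered samples biological replicates without saying how they were grown apart, so p-values measure the spread between these samples, which may be technical.

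Several arrays stood apart or went against their labels. Over all probe sets A549 DMSO replicate 1 correlated with A549 DMSO replicates 2 to 4 at r = 0.9561 to 0.9608, and with the 2 discodermolide arrays at 0.9777 and 0.9764. AD32 replicate 3 correlated with AD32 replicates 1 and 2 at 0.9591 and 0.9649, and with A549 DMSO replicate 2 at 0.9813. The AD32 4E-BP1 array correlated with AD32 replicates 1 to 3 at 0.9444, 0.9506 and 0.9828, and with A549 DMSO replicate 2 at 0.9955. These correlations run across genes within pairs of arrays and are descriptions only. SERPINB5, an epithelial serpin, had 3.92 in AD32 4E-BP1 and 10.83, 10.46 and 9.49 in AD32, against 3.68, 3.73, 4.26 and 3.81 in A549 with DMSO. EIF4EBP1, which encodes 4E-BP1, had 11.61 in AD32 4E-BP1 and 8.93, 7.99 and 8.63 in AD32, against 10.23, 9.5, 9.47 and 9.52 in A549 with DMSO. The library labelled AD32 4E-BP1 therefore had a high EIF4EBP1 level but, for SERPINB5, the A549 level, while AD32 replicate 3 had the AD32 level. A549 DMSO replicates 3 and 4 were nearly alike (SD of their difference 0.17, against 0.312 for the next closest pair in that group). Of the epithelial markers, KRT8 (12.67 to 13.73), KRT18 (13.03 to 14.0) and CDH1 (8.46 to 10.4) were high, whereas EPCAM lay at 3.3 to 3.87 and KRT19 at 5.71 to 6.28 on every array.

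The 45 genes moved together from array to array. Expressed as the deviation of each gene from its own mean over the 10 arrays, their median was 1.68 in AD32 4E-BP1, −2.76, −1.87 and 1.5 in AD32, −1.55 and −1.24 in A549 with discodermolide, and −1.21, 1.83, 1.84 and 1.80 in A549 with DMSO. The median over all genes stayed between −0.04 and 0.04 on each array. Thus AD32 4E-BP1, AD32 replicate 3 and A549 DMSO replicates 2 to 4 were high, the other 5 arrays were low, and both AD32 and A549 with DMSO held arrays of each kind. In a population measured in bulk, fewer cells in G2 and mitosis and less transcript per cell cannot be told apart.

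**Figure D1:**
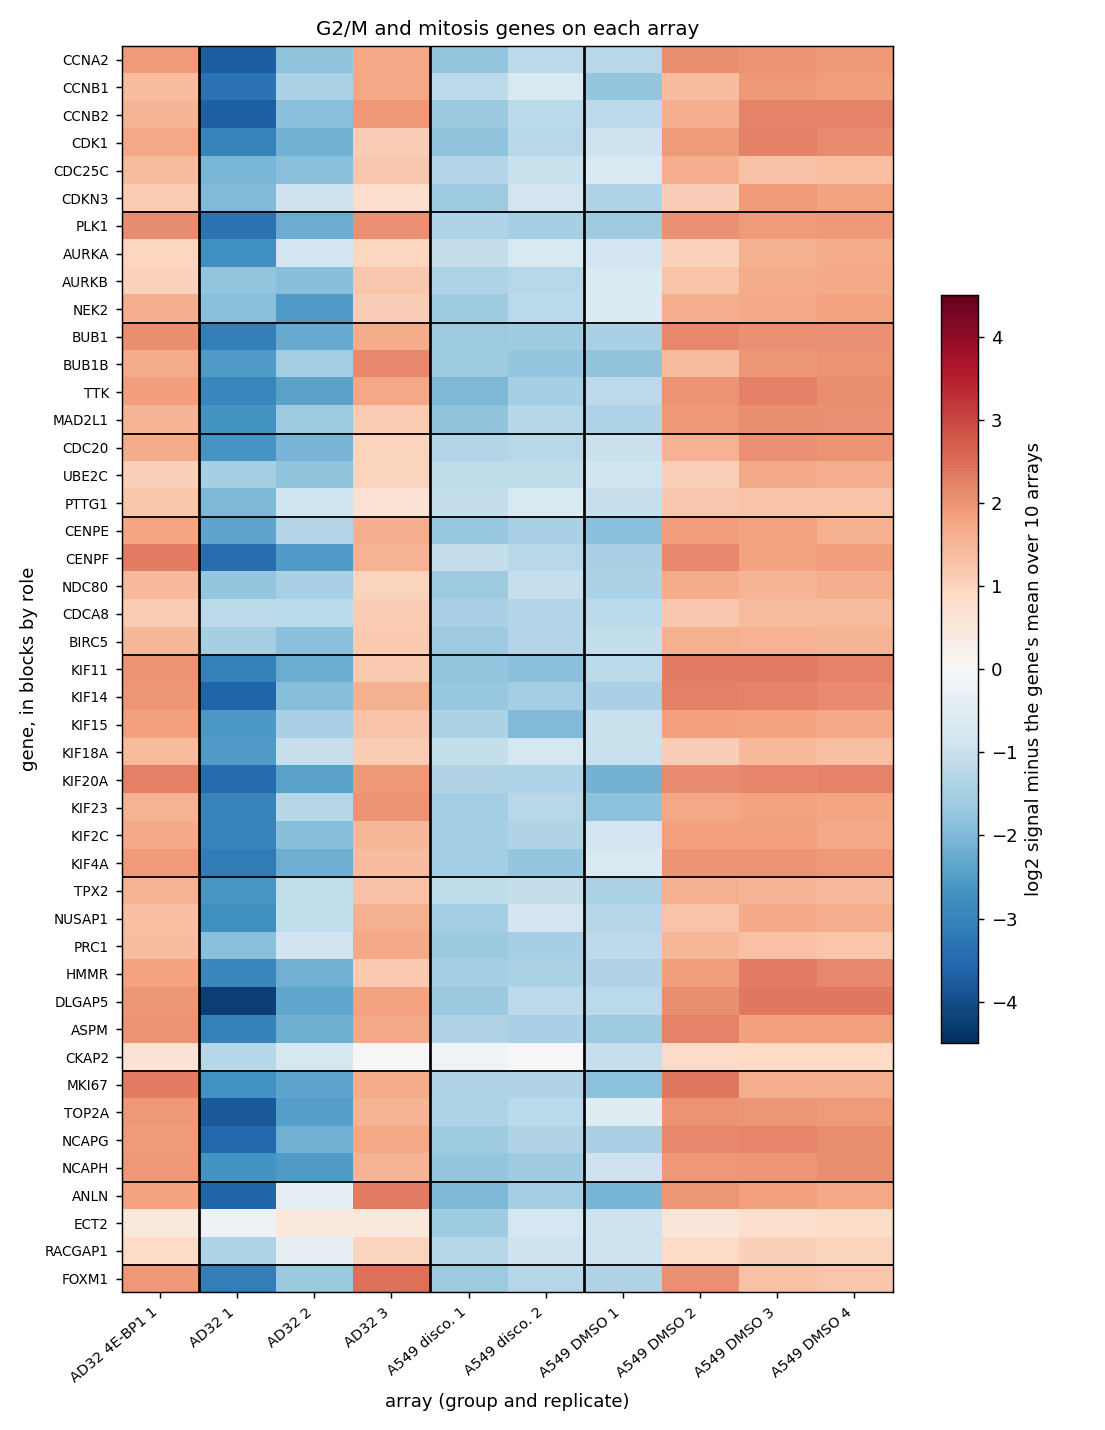
Deviation of each of the 45 measured genes (rows, in blocks by role) from its own mean over 10 arrays, on each array (columns, grouped by line and treatment), in log2 units. AD32 4E-BP1, AD32 replicate 3 and A549 DMSO replicates 2 to 4 are red in nearly every row, and the other 5 arrays are blue in nearly every row.

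Within A549 in DMSO, replicate 1 lay over 1 log2 unit below replicates 2, 3 and 4 for 45 of 45 members, an order met by 5.16% of all genes. The gap from replicate 1 to the lowest of the other 3 had a median of −2.84 over the members (−4.23 for KIF20A to −1.49 for ECT2), against 0.17 over all genes. Replicates 2 to 4 lay within a median of 0.21 of one another. Replicate 1 fell among the discodermolide arrays: it was above both for 21 members (38.6% of all genes), between them for 12 (18.5%) and below both for 12 (42.8%). The 12 below both were CCNB1, PLK1, BUB1B, CENPE, CENPF, KIF20A, KIF23, TPX2, ASPM, CKAP2, MKI67 and ANLN.

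Within AD32, replicate 3 lay above replicates 1 and 2 for 44 of 45 members (31.5% of all genes), and by over 1 log2 unit for 43 (3.30%). ECT2 was the exception to the first order, and ECT2 and CKAP2 to the second. Its excess over the higher of the other 2 had a median of 3.20, between −0.01 for ECT2 and 4.35 for KIF20A. Replicate 1 was below replicate 2 for 40 members (45.3% of all genes), the exceptions being AURKB, NEK2, UBE2C, CDCA8 and BIRC5. Replicate 1 was the lowest of all 10 arrays for 39 members (10.7% of all genes). On that array 23 members lay under its lower quartile of 4.94, a range in which nothing shows the signal to exceed background, and differences in signal there need not equal differences in transcript. Fewer lay under the lower quartile on AD32 replicate 2 (6), A549 discodermolide replicates 1 and 2 (4 and 1) and A549 DMSO replicate 1 (2). Those of discodermolide replicate 1 were TTK, CENPE, NDC80 and KIF15.

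The 2 discodermolide arrays lay a median of 0.25 apart (0.16 over all genes), replicate 2 being the higher for 35 members (50.7% of all genes). Both lay below A549 DMSO replicates 2, 3 and 4 for 45 of 45 members, which held for 20.0% of all genes. The lowest of those DMSO arrays exceeded the higher discodermolide array by a median of 2.97, from 0.86 for CKAP2 to 3.98 for KIF11. AD32 replicate 1 was below both discodermolide arrays for 42 members (38.2% of all genes), with CDCA8, BIRC5 and ECT2 as exceptions, and AD32 replicate 2 for 28 (42.2%). AD32 replicate 2 lay above both for 7 (36.8% of all genes), BUB1B, CENPE, CDCA8, PRC1, ANLN, ECT2 and RACGAP1, and between them for 10 (21.0%). AD32 replicate 3 was above both for 44 (36.0%), with CKAP2 as the exception, and above A549 DMSO replicate 1 for all 45 (46.3%). Against A549 DMSO replicates 2 to 4 it was lower than all 3 for 32 members (33.7% of all genes), within their range for 7 (35.3%) and above them for 6 (31.0%), PLK1, BUB1B, KIF23, PRC1, ANLN and FOXM1. AD32 4E-BP1 lay within the range of the 4 DMSO arrays, which the low DMSO replicate 1 widens, for 41 members (69.0%). It was above all 4 for PLK1, CENPF, KIF15 and KIF20A. It was above AD32 replicates 1 and 2 for 44 (33.3%), above AD32 replicate 3 for 34 (51.4%), and closest to A549 DMSO replicate 2 of the DMSO arrays for 27 (45.4%).

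The residual spread, which pools the variation within groups, therefore ranked these genes among the most variable on the arrays. Their residual SD had a median of 1.68 (0.68 to 2.25), against 0.24 over all genes, and 40 of the 45 were in the top 1% of genes. DLGAP5, ANLN and CCNB2 had the widest ranges over the 10 arrays (6.61, 5.95 and 5.90), and CKAP2, ECT2 and RACGAP1 the narrowest (2.2, 2.41 and 2.46).

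Because the members moved together, their promoters were read for 2 motifs of cell cycle promoters, in windows from 250 bases before to 50 bases after the annotated start (RefSeq, GRCh38.p14). Windows existed for 39 of the 46 listed genes, and no entry was found for FOXM1, BIRC5, AURKA, TTK, UBE2C, RACGAP1 and TPX2. The first motif was the core of the cell cycle homology region, TTTGAA, the element known to be bound by the MuvB subunit LIN54. The second was CCAAT, the box bound by NF-Y. Both were searched on both strands, and a match is a description of letters and not a site. The windows of KIF11, CCNB2, PLK1 and MKI67, members with a wide range over the arrays, and those of ECT2 and CKAP2, members with a narrow one, are given 5′ to 3′ on the gene's strand, from 200 bases before to 30 bases after the start. Capitals mark the motif letters on either strand (TTCAAA and ATTGG are the same motifs on the other strand).
KIF11, chr10:92592930-92593159, plus strand: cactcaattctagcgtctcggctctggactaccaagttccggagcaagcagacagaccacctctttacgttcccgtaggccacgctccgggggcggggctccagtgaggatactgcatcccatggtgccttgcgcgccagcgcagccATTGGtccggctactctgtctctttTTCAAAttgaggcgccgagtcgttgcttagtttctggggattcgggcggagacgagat
CCNB2, chr15:59104946-59105175, plus strand: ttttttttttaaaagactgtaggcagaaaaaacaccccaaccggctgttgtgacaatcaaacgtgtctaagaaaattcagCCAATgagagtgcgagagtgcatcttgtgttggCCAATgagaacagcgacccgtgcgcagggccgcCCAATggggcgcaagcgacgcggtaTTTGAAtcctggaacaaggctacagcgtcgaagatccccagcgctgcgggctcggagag
PLK1, chr16:23678689-23678918, plus strand: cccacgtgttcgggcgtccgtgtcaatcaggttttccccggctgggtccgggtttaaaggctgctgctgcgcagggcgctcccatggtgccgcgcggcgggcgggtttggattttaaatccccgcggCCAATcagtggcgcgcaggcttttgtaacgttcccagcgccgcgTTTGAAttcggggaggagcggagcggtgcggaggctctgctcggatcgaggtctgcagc
MKI67, chr10:128126394-128126623, minus strand: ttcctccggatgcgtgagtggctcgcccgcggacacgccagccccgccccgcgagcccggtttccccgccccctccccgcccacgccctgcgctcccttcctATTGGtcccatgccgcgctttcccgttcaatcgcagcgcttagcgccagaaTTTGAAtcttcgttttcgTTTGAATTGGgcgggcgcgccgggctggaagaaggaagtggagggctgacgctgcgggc
ECT2, chr3:172750526-172750755, plus strand: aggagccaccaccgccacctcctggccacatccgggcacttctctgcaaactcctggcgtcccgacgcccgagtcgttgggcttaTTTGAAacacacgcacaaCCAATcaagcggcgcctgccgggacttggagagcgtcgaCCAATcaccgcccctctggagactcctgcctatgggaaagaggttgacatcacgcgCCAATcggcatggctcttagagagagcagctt
CKAP2, chr13:52455788-52456017, plus strand: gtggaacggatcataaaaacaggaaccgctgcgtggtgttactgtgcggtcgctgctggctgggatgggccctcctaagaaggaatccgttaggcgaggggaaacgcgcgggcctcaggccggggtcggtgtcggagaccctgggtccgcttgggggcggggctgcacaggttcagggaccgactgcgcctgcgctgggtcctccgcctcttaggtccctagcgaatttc

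TTTGAA was present in 27 of the 39 windows (69.2%), against 15.4% of 27305 genes with a window of the same length. CCAAT was present in 30 (76.9%), against 35.7%, and at least 2 CCAAT boxes in 18 (46.2%), against 11.3%. Both motifs were present in 22 (56.4%), against 6.08%, and neither in 4 (10.3%), against 55%. Among measured genes that are not members the shares were 11.8% for TTTGAA and 36.2% for CCAAT. In CCNB2, whose searched window held 4 CCAAT boxes, TTTGAA began 29 bases before the start, and in PLK1 it began at the same distance. The CCNB2 box at −244 lies in the searched window but outside the printed bases. In KIF11 both motifs lay on the other strand. In MKI67 the second TTTGAA shared letters with a CCAAT box on the opposite strand. CKAP2, which had the narrowest range over the arrays, held neither motif, as did CDC25C, CENPE and KIF2C, whose ranges were 3.69, 4.24 and 4.85. ECT2, also with a narrow range, held both, with a second TTTGAA that began 35 bases after the start, outside the printed bases. The 4 wide-range genes printed all held both motifs. Among those not printed, ANLN (range 5.95) lacked CCAAT, and CCNA2 (5.82), KIF20A (5.72) and CCNB1 (5.25) lacked TTTGAA. A link between motifs and range was not tested. Only the first annotated start of each gene was read, so motifs at another start or outside the window would be missed.

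**Figure D2:**
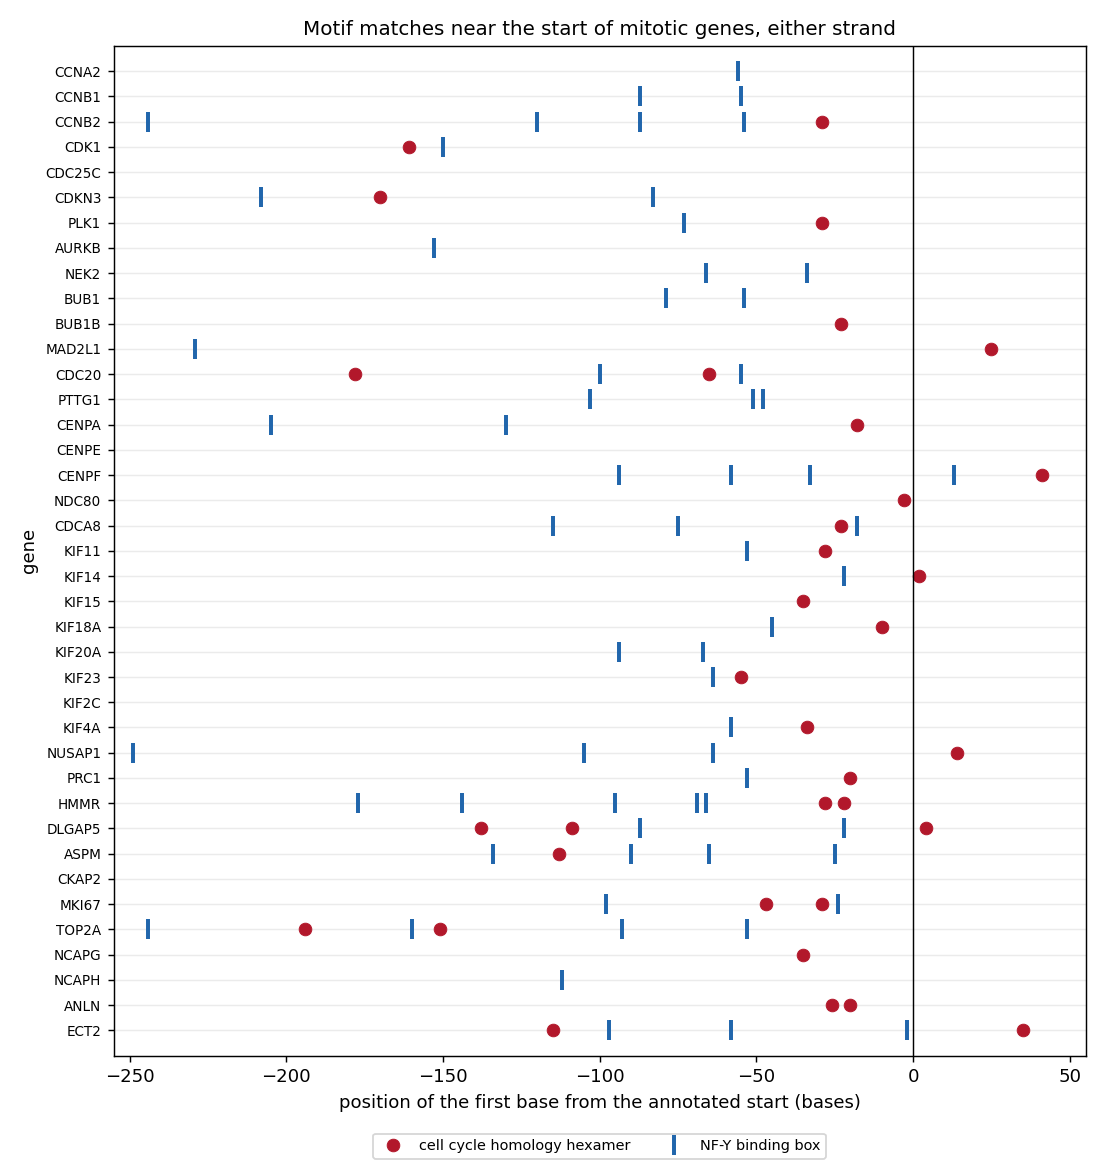
Positions of TTTGAA (cell cycle homology hexamer, red circles) and CCAAT (NF-Y binding box, blue bars) on either strand, as the distance in bases of the motif's first base from the annotated start, for the 39 listed genes with a promoter window. HMMR has 5 boxes and 2 hexamers, and CDC25C, CENPE, KIF2C and CKAP2 have none of either.

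CDK1, the kinase that drives entry into mitosis, and its cyclins were among the genes that separated the high and low arrays. CDK1 had 8.70 in AD32 4E-BP1, 3.98, 4.85 and 8.08 in AD32, 5.16 and 5.74 in A549 with discodermolide, and 6.04, 8.88, 9.23 and 9.10 in A549 with DMSO. All 3 AD32 arrays lay below DMSO replicates 2 to 4, while AD32 replicate 3 exceeded DMSO replicate 1, and the discodermolide arrays lay below all 4 DMSO arrays. CCNB1, the cyclin that activates CDK1 at mitosis, had 11.04 in AD32 4E-BP1, 6.33, 8.21 and 11.40 in AD32, 8.45 and 8.96 in A549 with discodermolide, and 7.92, 11.04, 11.58 and 11.52 in A549 with DMSO. CCNB2, a second B-type cyclin, had 9.92 in AD32 4E-BP1, 4.72, 6.49 and 10.33 in AD32, 6.73 and 7.17 in A549 with discodermolide, and 7.20, 10.03, 10.63 and 10.61 in A549 with DMSO. For both B cyclins AD32 replicate 3 lay within the range of DMSO replicates 2 to 4, and DMSO replicate 1 was below both discodermolide arrays for CCNB1 and just above them for CCNB2. CCNA2, the cyclin of S phase and G2, had 10.13 in AD32 4E-BP1, 4.49, 6.40 and 9.96 in AD32, 6.43 and 7.02 in A549 with discodermolide, and 6.95, 10.31, 10.21 and 10.16 in A549 with DMSO. CCNA2 thus overlapped between discodermolide and DMSO through DMSO replicate 1 alone. CDC25C, a phosphatase that activates CDK1, and CDKN3, a phosphatase that acts on cyclin-dependent kinases, were also higher on AD32 4E-BP1, AD32 replicate 3 and DMSO replicates 2 to 4 than on the other 5 arrays, with ranges of 3.69 and 3.91.

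The mitotic kinases showed the same split. PLK1, polo-like kinase 1, had 11.27 in AD32 4E-BP1, 5.82, 6.93 and 11.20 in AD32, 7.76 and 7.67 in A549 with discodermolide, and 7.56, 11.20, 11.07 and 11.11 in A549 with DMSO. AD32 4E-BP1 was the highest array for PLK1, and AD32 replicate 3 was level with DMSO replicate 2. AURKA, the kinase of spindle poles, had 10.13 in AD32 4E-BP1, 6.40, 8.29 and 10.12 in AD32, 8.08 and 8.48 in A549 with discodermolide, and 8.28, 10.19, 10.76 and 10.81 in A549 with DMSO. AURKB, the kinase of the chromosomal passenger complex, had 9.06 in AD32 4E-BP1, 6.24, 6.11 and 9.25 in AD32, 6.64 and 6.79 in A549 with discodermolide, and 7.42, 9.32, 9.71 and 9.73 in A549 with DMSO. For AURKB, AD32 replicates 1 and 2 were nearly level and all discodermolide arrays lay below all DMSO arrays, whereas for AURKA AD32 replicate 2 lay between the discodermolide arrays. NEK2, a centrosomal kinase, was likewise lower in AD32 replicate 2 (5.16) than in AD32 replicate 1 (5.81).

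Genes of the spindle assembly checkpoint, which delays anaphase until kinetochores are attached, had medians of deviation of 1.78 in AD32 4E-BP1, −2.80, −1.95 and 1.71 in AD32, −1.72 and −1.54 in A549 with discodermolide, and −1.43, 2.00, 2.08 and 2.05 in A549 with DMSO. BUB1B, which encodes the checkpoint protein BUBR1, had 9.13 in AD32 4E-BP1, 4.92, 5.92 and 9.63 in AD32, 5.87 and 5.71 in A549 with discodermolide, and 5.64, 8.90, 9.46 and 9.49 in A549 with DMSO. AD32 replicate 3 was the highest array for BUB1B, and AD32 replicate 2 exceeded both discodermolide arrays. MAD2L1, which encodes MAD2, had 8.83 in AD32 4E-BP1, 4.60, 5.65 and 8.42 in AD32, 5.48 and 5.99 in A549 with discodermolide, and 5.90, 9.25, 9.39 and 9.33 in A549 with DMSO. For MAD2L1 the AD32 and DMSO groups overlapped through AD32 replicate 3 and DMSO replicate 1. BUB1 and TTK, kinases of the same checkpoint, ranged over 5.21 and 5.17 log2 units across the arrays.

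CDC20, UBE2C and PTTG1 act at the start of anaphase. CDC20, the mitotic activator of the anaphase-promoting complex, had 10.34 in AD32 4E-BP1, 6.0, 6.57 and 9.67 in AD32, 7.36 and 7.43 in A549 with discodermolide, and 7.67, 10.23, 10.73 and 10.68 in A549 with DMSO. UBE2C, a ubiquitin-conjugating enzyme of that complex, had 9.21 in AD32 4E-BP1, 6.63, 6.31 and 9.13 in AD32, 6.98 and 6.97 in A549 with discodermolide, and 7.22, 9.21, 9.81 and 9.74 in A549 with DMSO. Both genes had every discodermolide array below every DMSO array, with DMSO replicate 1 far closer to the discodermolide arrays than to the other DMSO arrays. PTTG1, securin, the inhibitor of separase, had 10.30 in AD32 4E-BP1, 7.04, 8.18 and 9.70 in AD32, 7.98 and 8.37 in A549 with discodermolide, and 8.04, 10.29, 10.34 and 10.36 in A549 with DMSO. DMSO replicates 2 to 4 were nearly level for PTTG1, and DMSO replicate 1 lay between the discodermolide arrays. PTTG1 has near-identical copies (PTTG2, PTTG3P), and its signal is uncertain where probes could read them. The same holds for KIF4A, which has the near-identical copy KIF4B.

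At the centromere and kinetochore, CENPF, a large kinetochore protein of G2 and mitosis, had 10.55 in AD32 4E-BP1, 4.83, 5.69 and 9.81 in AD32, 7.18 and 7.00 in A549 with discodermolide, and 6.79, 10.39, 10.07 and 10.13 in A549 with DMSO. The AD32 4E-BP1 array was the highest for CENPF and AD32 replicate 1 the lowest. BIRC5, survivin, a subunit of the chromosomal passenger complex, had 9.79 in AD32 4E-BP1, 6.80, 6.41 and 9.45 in AD32, 6.66 and 6.97 in A549 with discodermolide, and 7.20, 9.89, 9.84 and 9.80 in A549 with DMSO. For BIRC5, AD32 replicate 1 lay between the discodermolide arrays. A second, dimmer BIRC5 probe set had 5.60 in AD32 4E-BP1, 4.30, 4.58 and 5.33 in AD32, 4.57 and 4.58 in A549 with discodermolide, and 4.90, 5.48, 5.71 and 5.36 in A549 with DMSO. It had the same high and low arrays over a narrower range. CDCA8, borealin of the same complex, was 1 of 2 members for which all 3 AD32 arrays (5.88, 5.84 and 8.21) lay above both discodermolide arrays (5.60 and 5.76). CENPE, a kinetochore motor, and NDC80, a microtubule-binding kinetochore protein, were under the lower quartile on AD32 replicate 1 (3.99 and 4.48) and on A549 DMSO replicate 1 (4.48 and 4.79), whose lower quartile was also 4.94. Both also lay under the lower quartile of A549 discodermolide replicate 1, and NDC80 under that of AD32 replicate 2.

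The 8 kinesins had medians of deviation of 1.88 in AD32 4E-BP1, −3.02, −1.92 and 1.45 in AD32, −1.54 and −1.46 in A549 with discodermolide, and −1.11, 1.92, 1.94 and 1.87 in A549 with DMSO. KIF11, the plus-end motor Eg5 that separates spindle poles, had 9.63 in AD32 4E-BP1, 4.59, 5.38 and 8.80 in AD32, 5.89 and 5.75 in A549 with discodermolide, and 6.42, 9.92, 9.96 and 9.87 in A549 with DMSO. All AD32 arrays were below DMSO replicates 2 to 4, and the discodermolide arrays were below all 4 DMSO arrays. KIF20A, a motor of the central spindle and cytokinesis, had 10.21 in AD32 4E-BP1, 4.49, 5.55 and 9.90 in AD32, 6.61 and 6.58 in A549 with discodermolide, and 5.83, 10.07, 10.14 and 10.17 in A549 with DMSO. KIF20A had the widest gaps within groups of the 45 members, both between DMSO replicate 1 and the other DMSO arrays and between AD32 replicate 3 and the other AD32 arrays. KIF23, a subunit of centralspindlin, had its highest level in AD32 replicate 3 (11.17). KIF15, a spindle motor that can act beside KIF11, was highest in AD32 4E-BP1 and in A549 DMSO replicate 2 (7.86 in each).

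Among spindle and microtubule-binding proteins, TPX2, an activator of AURKA, had 10.70 in AD32 4E-BP1, 6.51, 8.03 and 10.47 in AD32, 7.99 and 8.06 in A549 with discodermolide, and 7.71, 10.74, 10.66 and 10.59 in A549 with DMSO. PRC1, which bundles microtubules of the central spindle, had 10.86 in AD32 4E-BP1, 7.62, 8.58 and 11.20 in AD32, 7.81 and 8.0 in A549 with discodermolide, and 8.30, 10.97, 10.79 and 10.72 in A549 with DMSO. For PRC1, AD32 replicate 3 was the highest array and AD32 replicate 2 lay above DMSO replicate 1, which in turn lay above both discodermolide arrays. DLGAP5, a spindle assembly factor also called HURP, had 10.18 in AD32 4E-BP1, 3.96, 5.87 and 10.01 in AD32, 6.54 and 7.01 in A549 with discodermolide, and 7.00, 10.31, 10.57 and 10.56 in A549 with DMSO. It had the widest range of the 45, and AD32 replicates 1 and 2 differed by 1.91 in it. CKAP2, a cytoskeleton-associated protein of the spindle, had 9.86 in AD32 4E-BP1, 7.94, 8.48 and 9.20 in AD32, 9.02 and 9.23 in A549 with discodermolide, and 8.19, 10.10, 10.14 and 10.11 in A549 with DMSO. CKAP2 was the 1 member for which AD32 replicate 3 did not exceed both discodermolide arrays.

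MKI67 and TOP2A, markers of cycling cells, and the condensin subunits NCAPG and NCAPH act in chromosome structure. MKI67, which encodes the Ki-67 protein that coats mitotic chromosomes, had 10.55 in AD32 4E-BP1, 5.51, 5.87 and 9.93 in AD32, 6.90 and 6.90 in A549 with discodermolide, and 6.42, 10.63, 9.88 and 9.90 in A549 with DMSO. TOP2A, the topoisomerase that untangles sister chromatids, had 11.37 in AD32 4E-BP1, 5.65, 6.94 and 10.98 in AD32, 8.05 and 8.23 in A549 with discodermolide, and 8.90, 11.45, 11.42 and 11.35 in A549 with DMSO. MKI67 in DMSO replicate 1 was below both discodermolide arrays, whereas TOP2A in DMSO replicate 1 was above them, so the relation of that array to the discodermolide arrays differed between these 2 genes. AD32 replicates 1 and 2 were the lowest arrays for both.

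Cytokinesis genes and the regulator FOXM1 complete the members. ECT2, the exchange factor that activates RHOA at the cleavage site, had 10.30 in AD32 4E-BP1, 9.56, 10.30 and 10.29 in AD32, 8.23 and 9.02 in A549 with discodermolide, and 8.87, 10.36, 10.62 and 10.64 in A549 with DMSO. All 3 AD32 arrays lay above both discodermolide arrays for ECT2, and AD32 replicates 2 and 3 were level. RACGAP1, the other centralspindlin subunit, had 10.06 in AD32 4E-BP1, 7.79, 8.81 and 10.17 in AD32, 7.87 and 8.22 in A549 with discodermolide, and 8.24, 10.06, 10.25 and 10.15 in A549 with DMSO. ANLN, anillin, a scaffold of the contractile ring, had 10.09 in AD32 4E-BP1, 4.66, 7.85 and 10.61 in AD32, 6.25 and 6.70 in A549 with discodermolide, and 6.18, 10.25, 10.11 and 10.01 in A549 with DMSO. AD32 replicate 2 was above both discodermolide arrays for all 3 of these genes, and for ANLN it exceeded AD32 replicate 1 by 3.19, the widest such step among the members. FOXM1, the transcription factor that activates many G2/M genes, had 10.28 in AD32 4E-BP1, 5.24, 6.67 and 10.82 in AD32, 6.71 and 7.04 in A549 with discodermolide, and 6.98, 10.40, 9.67 and 9.58 in A549 with DMSO. AD32 replicate 3 was the highest array for FOXM1, and DMSO replicate 2 was above replicates 3 and 4.

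**Figure D3:**
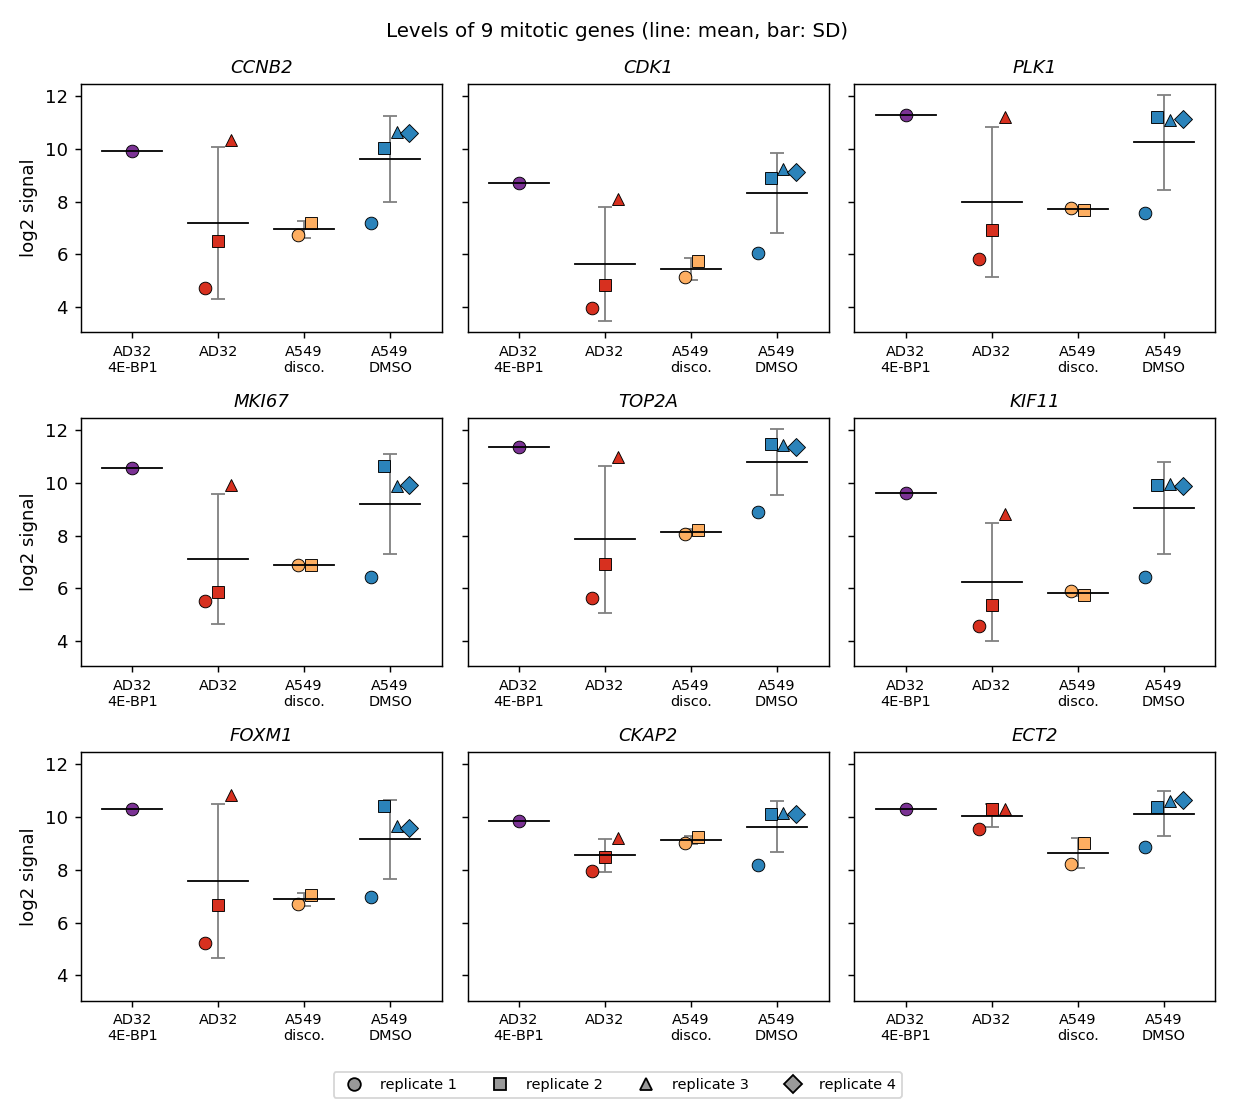
Log2 signal of 9 genes on every array, by group (AD32 4E-BP1, AD32, A549 with discodermolide, A549 with DMSO), with replicates as symbols, the group mean as a line and the SD as a bar where a group has over 1 array. In every panel A549 DMSO replicate 1 lies below the other DMSO arrays, and in every panel but that of ECT2 AD32 replicate 3 lies above AD32 replicates 1 and 2.

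Group comparisons were fitted with limma across all 18279 genes, and no member passed an adjusted p of 0.05 in any of the 5. For A549 with discodermolide against A549 with DMSO, all 45 members had a lower mean with discodermolide, with a median log2 difference of −2.43 (−3.22 for KIF11 to −0.51 for CKAP2), against 0.02 over all genes. KIF11 averaged 5.82 ± 0.09 with discodermolide (SD, n = 2) and 9.04 ± 1.75 with DMSO (SD, n = 4), a 9.33-fold difference with a standard error of 1.26 log2 units and an adjusted p of 0.388. MKI67 averaged 6.90 with discodermolide and 9.21 ± 1.89 with DMSO (adjusted p = 0.599). Adjusted p ran from 0.303 for ECT2 to 0.831 for CKAP2. The count of members called was 0 of 45, with 0.372% of all genes called, and 15 members (11.1% of all genes) had an unadjusted p under 0.05. All discodermolide arrays were below all DMSO arrays for 21 members, against 7.71% of all genes. These included CDK1, CCNB2, AURKB, BUB1, TTK, CDC20, BIRC5, KIF11 and TOP2A, and the other 24 overlapped through DMSO replicate 1. With DMSO replicate 1 left out, the median was −3.24 and 2 members were called, ECT2 (−1.92, adjusted p = 0.0169) and CDCA8 (−2.74, adjusted p = 0.0499), with 3.52% of all genes called. With limma's array weights, which gave DMSO replicate 1 the lowest weight of the 10 arrays (0.184), all 45 were called lower, with 25% of all genes called and a median of −3.15. That array stands apart on these same genes, so neither setting is independent support for a difference. With the replicate number as a block the median was −1.27, with 0 members and 0.0219% of all genes called.

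For AD32 against A549 with DMSO, all 45 had a lower mean in AD32, with a median difference of −2.0 (−3.0 for DLGAP5 to −0.07 for ECT2), against 0.01 over all genes. AD32 was grown in discodermolide, so line and drug cannot be told apart here. CDK1, with the smallest adjusted p of the members (0.190), averaged 5.64 ± 2.16 in AD32 (SD, n = 3) and 8.31 ± 1.52 in A549 with DMSO (SD, n = 4), a difference of −2.68 with a standard error of 1.03. TOP2A averaged 7.86 ± 2.78 in AD32 and 10.78 ± 1.26 in A549 with DMSO (adjusted p = 0.196). ECT2 averaged 10.05 ± 0.42 in AD32 and 10.12 ± 0.85 in A549 with DMSO, with an adjusted p of 0.965. The count called was 0 of 45 (5.72% of all genes), 9 members (19.7% of all genes) had an unadjusted p under 0.05, and no member separated the groups, against 6.48% of all genes with every AD32 array lower. Without AD32 replicate 1 the median was −1.25 and 0 members were called, with 3.12% of all genes called. Without AD32 replicate 3 it was −3.25 and 24 members were called lower, with 10.8% of all genes called. TOP2A had then a difference of −4.48 (adjusted p = 0.00628) and FOXM1 one of −3.20 (adjusted p = 0.0466). Without DMSO replicate 1, 10 members were called lower (11.8% of all genes called), CDK1, CDKN3, NEK2, MAD2L1, CDC20, PTTG1, NDC80, KIF11, HMMR and CKAP2, and with array weights 44 were (23.1% of all genes called), the exception being ECT2 (adjusted p = 0.268). Both AD32 replicate 3 and DMSO replicate 1 stand apart on these same genes, so these settings are no independent support either.

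For AD32 against A549 with discodermolide, 39 members had a higher mean in AD32 and 6 a lower one, with a median difference of 0.31 (−0.58 for CKAP2 to 1.43 for ECT2), against 0.01 over all genes. The count called was 0 of 45 (3.74% of all genes), 1 member (15.5% of all genes) had an unadjusted p under 0.05, and CDCA8 and ECT2 were the 2 members with every AD32 array above both discodermolide arrays (14.4% of all genes). ECT2 averaged 10.05 ± 0.42 in AD32 (SD, n = 3) and 8.62 ± 0.56 with discodermolide (SD, n = 2), a 2.69-fold difference with an adjusted p of 0.207. It was the 1 member past the threshold without DMSO replicate 1 (adjusted p = 0.0241, with 6.65% of all genes called) and with array weights (adjusted p = 0.0276, with 10.2% called). The sign of the median rested on AD32 replicate 3: it was −0.89 without that array, and 1.22 without AD32 replicate 1. It was also below 0 with array weights (−0.15).

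AD32 4E-BP1 had a single array, and its comparisons take its spread to be that of the replicated groups. It was in DMSO and AD32 in discodermolide, so line and drug cannot be told apart between them. Over all probe sets this array correlated most with A549 DMSO replicate 2 (r = 0.9955). Against AD32, all 45 members were higher in AD32 4E-BP1, by a median of 2.70 (0.25 for ECT2 to 3.78 for CENPF), against −0.03 over all genes, and 33 were above every AD32 array (23.9% of all genes). CENPF had 10.55 in AD32 4E-BP1 and averaged 6.77 ± 2.66 in AD32 (SD, n = 3), with an adjusted p of 0.597. None was called, with 0.919% of all genes called, and 0 members against 9.46% of all genes had an unadjusted p under 0.05. Without AD32 replicate 3 the median was 3.85 and TOP2A alone was called (5.08, adjusted p = 0.0349), with 3.59% of all genes called, and without AD32 replicate 1 the median was 1.79 with 0 called. Array weights gave 21 members called higher, with 7.01% of all genes called. Against A549 with DMSO the median was 0.59 (0.02 for AURKB to 1.34 for MKI67), against 0.00 over all genes, with an adjusted p of 1.0 for every member. Here 0.0% of genes were called, 0 members and 1.14% of all genes had an unadjusted p under 0.05, and 4 members were above all 4 DMSO arrays (15.1% of all genes). The median was −0.10 without DMSO replicate 1 and −0.07 with array weights.

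**Figure D4:**
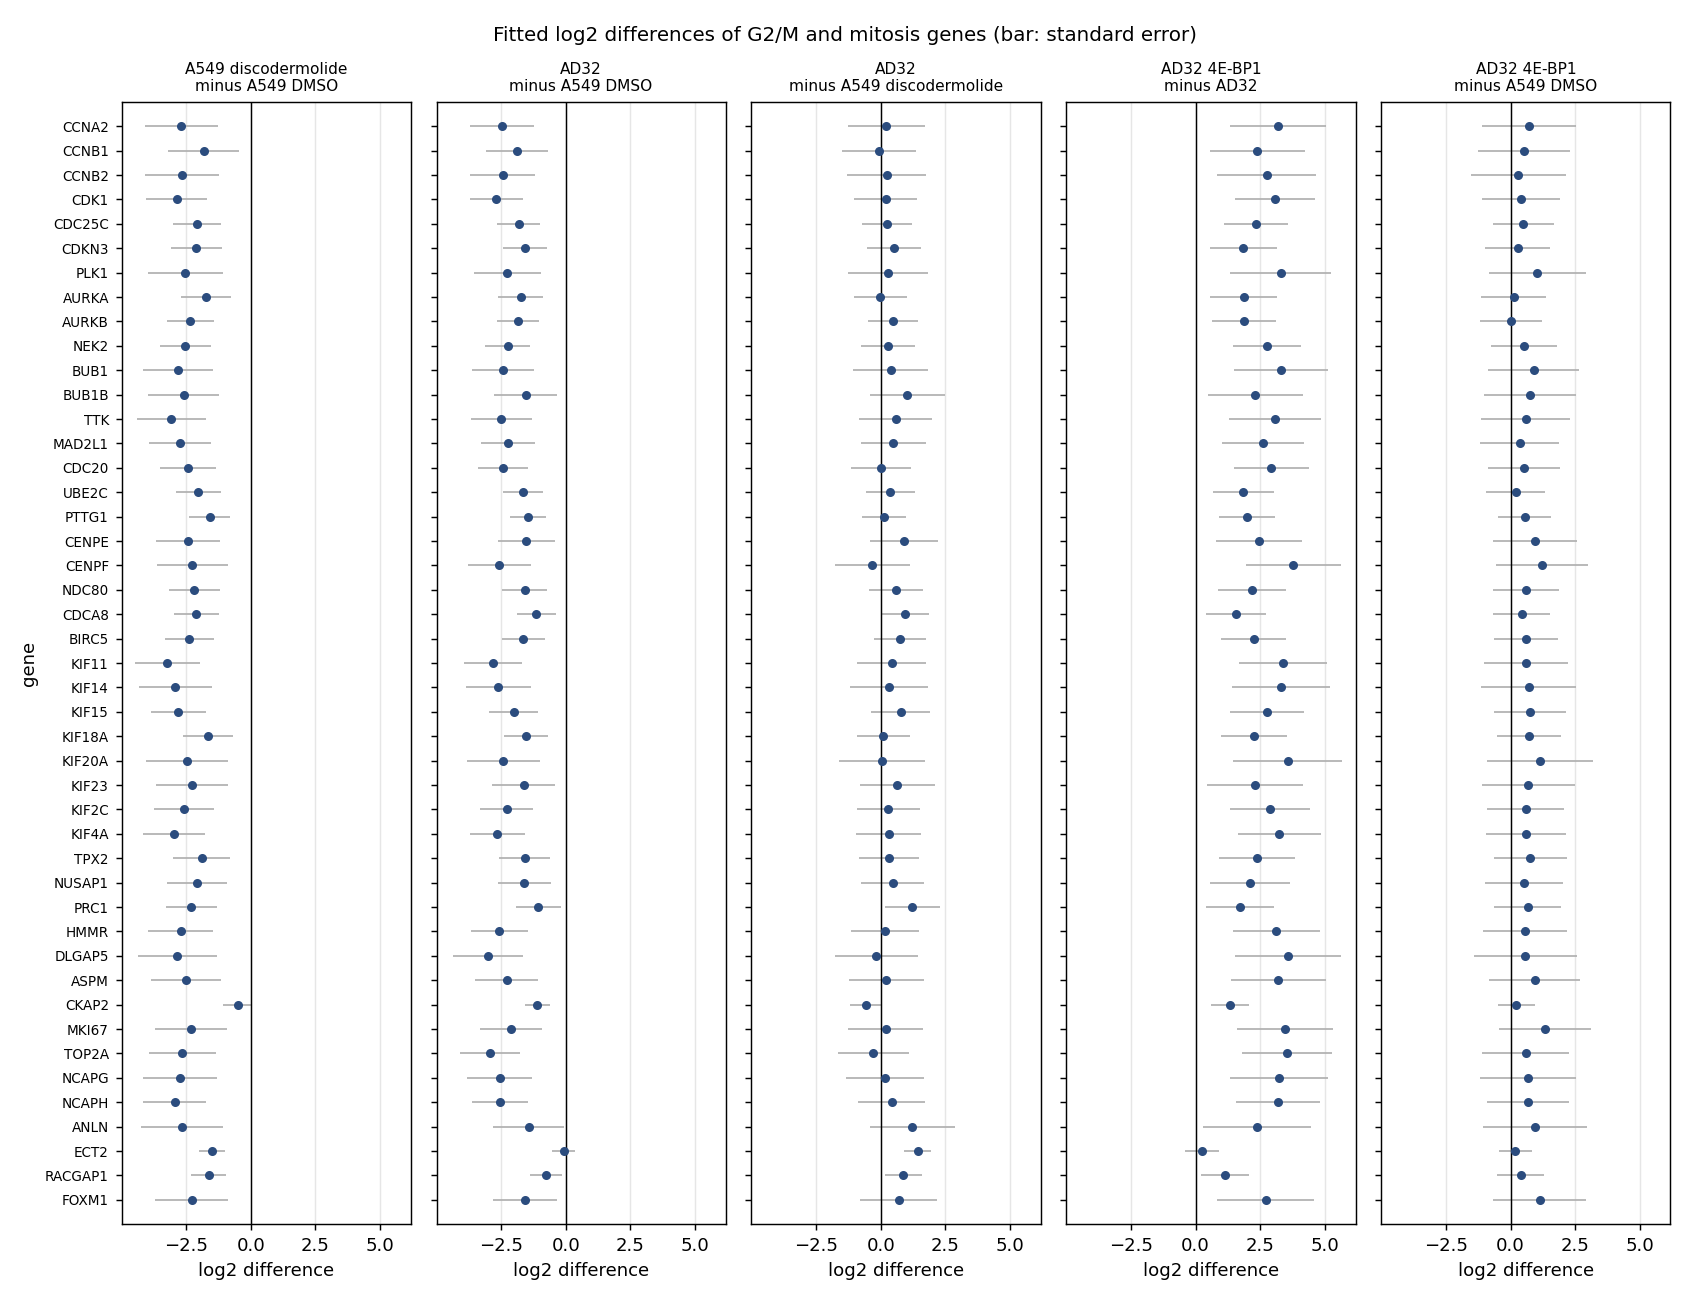
Fitted log2 differences of the 45 genes in the 5 comparisons, named above each panel, with standard errors as bars. Points lie left of 0 in both comparisons with A549 DMSO that have replicates and right of 0 for AD32 4E-BP1 against AD32, with standard errors from 0.50 to 1.59 in the first panel.

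Lists of other cell cycle genes were described in the same way. Of 40 other mitotic regulators and spindle genes, 40 had a lower mean with discodermolide than with DMSO, with a median of −1.89, and 39 a lower mean in AD32 than in A549 with DMSO, with a median of −1.41. Of 35 other kinetochore and centromere genes the counts were 33 and 31, with medians of −1.72 and −1.07. Of 36 DNA replication and S phase genes the counts were 35 and 35, with medians of −1.72 and −1.07. None of these lists had a member past the threshold in either comparison, where 0.372% and 5.72% of all genes passed. The S phase genes had a median deviation of −1.35 on A549 DMSO replicate 1 and 1.20 on AD32 replicate 3, so they were low and high on the same arrays as the mitotic genes. Their deviations on AD32 replicates 1 and 2 (−1.46 and −1.22) were smaller in size than those of the listed members (−2.76 and −1.87). This did not hold for the other mitotic lists on both arrays. The other mitotic regulators and spindle genes had −1.7 and −1.2 there, and the other kinetochore and centromere genes −1.67 and −0.78. On AD32 replicate 2 the S phase genes were thus lower than either of these lists.

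Lists of mitotic machinery other than these had medians nearer to 0. The 16 measured subunits and partners of the anaphase-promoting complex had a median difference of −0.16 for discodermolide against DMSO and −0.12 for AD32 against A549 with DMSO, and cohesin, condensin and separase genes −0.53 and −0.43. Lower means were found for 11 and 9 of the 16 anaphase-promoting complex genes. For the 16 cohesin, condensin and separase genes the counts were 15 and 15. The latter list had median deviations of 0.44 in AD32 4E-BP1 and −0.63, −0.38 and 0.45 in AD32. It had −0.42 and −0.44 in A549 with discodermolide, and −0.91, 0.5, 0.48 and 0.38 in A549 with DMSO. It was thus low and high on the same arrays as the mitotic genes. The anaphase-promoting complex list was lowest on A549 DMSO replicate 1, with a median deviation of −0.66 there and between −0.16 and 0.30 on the other 9 arrays. That replicate also had the lowest upper quartile of the 10 arrays (8.142, against 8.249 to 8.393), and its part in the levels above was not tested.

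**Figure D5:**
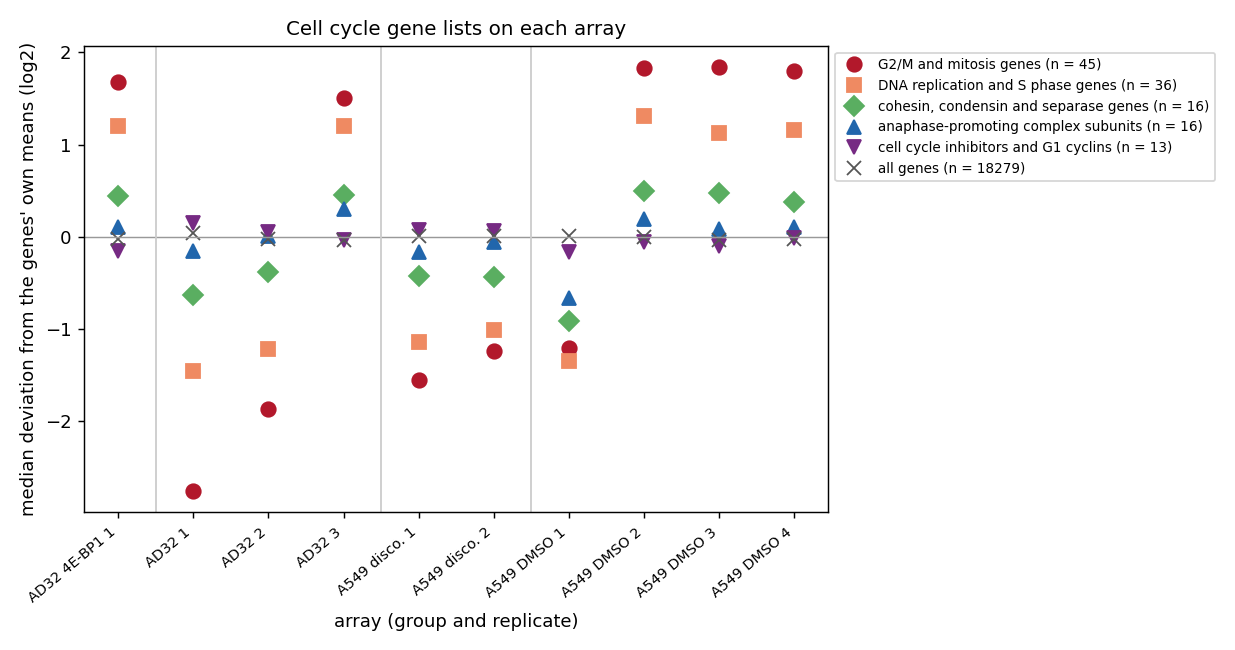
Median deviation of gene lists from their genes' own means (log2) on each array, for the 45 G2/M and mitosis genes, 36 S phase genes, 16 cohesin, condensin and separase genes, 16 anaphase-promoting complex subunits, 13 cell cycle inhibitors and G1 cyclins, and all 18279 genes. The mitotic genes run from −2.76 on AD32 replicate 1 to 1.84 on A549 DMSO replicate 3, while all genes stay between −0.04 and 0.04.

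Regulators of the programme were read beside it. MYBL2, which encodes B-MYB, had 10.48 in AD32 4E-BP1, 6.02, 6.88 and 10.44 in AD32, 7.08 and 7.07 in A549 with discodermolide, and 7.51, 10.57, 10.47 and 10.47 in A549 with DMSO, with the same 5 arrays high as the median member. E2F1, an activator of S phase genes, had 8.05 in AD32 4E-BP1, 6.97, 6.59 and 8.01 in AD32, 6.60 and 6.97 in A549 with discodermolide, and 6.72, 7.96, 7.78 and 7.83 in A549 with DMSO. Neither passed the threshold in any comparison. CDKN1A, which encodes the cyclin-dependent kinase inhibitor p21, had 8.0 in AD32 4E-BP1, 10.28, 10.45 and 9.0 in AD32, 10.21 and 9.79 in A549 with discodermolide, and 8.64, 7.59, 8.35 and 8.36 in A549 with DMSO. It rose in AD32 against A549 with DMSO by 1.68 (standard error 0.37, adjusted p = 0.0309), whereas with discodermolide the difference of 1.76 had an adjusted p of 0.133. Within AD32 its lowest array was replicate 3 and within DMSO its highest was replicate 1, the arrays on which the mitotic genes were highest and lowest in those groups. E2F5, a repressor-type E2F, was lower in AD32 (6.91, 7.55 and 7.29) than in A549 with DMSO (7.91, 8.5, 8.55 and 8.5), by −1.12 (adjusted p = 0.0164). It and TFDP2, an E2F partner, also fell in AD32 against A549 with discodermolide, by 1.33 (adjusted p = 0.0221) and 1.11 (adjusted p = 0.0104). Of 23 DREAM, B-MYB and E2F regulators, E2F5 was the 1 past the threshold in AD32 against A549 with DMSO, and of 13 cell cycle inhibitors and G1 cyclins CDKN1A was, where 5.72% of all genes passed. In AD32 against A549 with discodermolide, E2F5 and TFDP2 were the 2 of those 23 past it, where 3.74% of all genes passed.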

How the data were processed

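RNA of 10 samples was measured on Affymetrix arrays, 1 array per sample. The values deposited by the authors are log2 signals for 24308 probe sets. Per the submitters' processing notes they came from Affymetrix Expression Console, whose version and settings for summarising and normalizing the sources used here do not give, so how much of the arrays' spread was removed before deposit is unknown. The files hold no missing value and no detection call. Low levels were therefore read only as low, and precision is limited by the number of arrays.

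Gene names came from the platform annotation, which gave 1 gene for 19262 of the probe sets, several for 1720 and none for 3326. Genes with several probe sets were read from the one with the highest mean, leaving 18279 genes. Groups came from the labels. Tests used limma 3.58.1 in R 4.3.3 (lmFit and eBayes over all 10 arrays, 4 groups with 1 shared residual spread, 6 residual degrees of freedom, two-sided, Benjamini-Hochberg adjustment over all genes, threshold 0.05). The fit was checked on simulated data with noise drawn independently for each gene and array. That check does not cover arrays on which many genes shift together, as they do here. Comparisons that share the A549 DMSO or AD32 arrays are not independent of one another. Promoter windows came from RefSeq (GRCh38.p14), using the first entry of each gene.

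The members, lists and alternatives were chosen with earlier results of these data known. Values on every array are given for a fixed set of members with well-known roles and for the 3 members with the widest and the 3 with the narrowest range, and CDKN1A, MYBL2 and E2F1 were named whatever their result. Of the other lists, up to 3 genes past the threshold per comparison were named. As alternatives the values were quantile normalized again or centred on array medians, the lowest 33.3% of genes were dropped, the prior was made trended and robust, arrays were weighted, the fit was limited to the groups compared, probe sets of a gene were averaged, A549 DMSO replicates 3 and 4 were averaged, the replicate number was added as a block, and each replicate was left out.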

Additional observations from a re-analysis of the deposited data

Results flagged for a closer look

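A549 DMSO replicate 1 lay far below the other 3 DMSO arrays for most members. Dixon's ratio, the gap from that array to its nearest neighbour divided by the range of the 4 arrays, was above Dixon's critical value for 4 arrays for 38 of the 45 members and for the mean of the 45 measured members (0.968). Chance gives about 1 such case in 20 groups for unrelated genes, but these genes vary together on the same arrays, and the mean is made of them. That array was already known to stand apart on these genes. The ratios therefore describe 1 low array again and are not independent support. The ratio was not taken over all genes, so the count has no share of all genes beside it. Over all probe sets A549 DMSO replicate 1 also correlated less with its own group than with the discodermolide arrays.

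The ratio was above it for CCNA2 (0.956), CCNB1 (0.852), CDK1 (0.889) and CDC25C (0.867), and for the kinases PLK1 (0.964) and NEK2 (0.922). All 4 checkpoint genes were above it, BUB1 at 0.976, BUB1B at 0.846, TTK at 0.938 and MAD2L1 at 0.961, as were CDC20 (0.836) and PTTG1 (0.972). At the centromere and kinetochore CENPE had 0.928, CENPF 0.912, NDC80 0.954, CDCA8 0.921 and BIRC5 0.967. All 8 kinesins were above it, with KIF11 at 0.974, KIF14 at 0.960, KIF15 at 0.951, KIF18A at 0.863, KIF20A at 0.977, KIF23 at 0.976, KIF2C at 0.948 and KIF4A at 0.971. All 7 spindle and microtubule-binding genes were too, with TPX2 at 0.949, NUSAP1 at 0.855, PRC1 at 0.905, HMMR at 0.882, DLGAP5 at 0.929, ASPM at 0.893 and CKAP2 at 0.977. The ratio was 0.960 for TOP2A, 0.967 for NCAPG and 0.958 for NCAPH, and in cytokinesis 0.939 for ANLN, 0.840 for ECT2 and 0.904 for RACGAP1. The 7 members under the critical value were CCNB2, CDKN3, AURKA, AURKB, UBE2C, MKI67 and FOXM1.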

How the results depend on the processing

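In all 5 comparisons the count of members past the threshold was 0, and it stayed at 0 under quantile normalization, median centring, removal of dim genes, a trended robust prior, a fit limited to the groups compared, averaging of probe sets and averaging of A549 DMSO replicates 3 and 4. Array weights gave 45 members for A549 with discodermolide against DMSO (25% of all genes), 44 for AD32 against A549 with DMSO (23.1%), 1 for AD32 against discodermolide (10.2%), 21 for AD32 4E-BP1 against AD32 (7.01%) and 0 for AD32 4E-BP1 against A549 with DMSO (0.0164%). The weights were lowest for A549 DMSO replicate 1 (0.184) and AD32 replicate 3 (0.339), the arrays that stand apart within their groups. With 1 replicate left out at a time the counts ran from 0 to 2 for discodermolide against DMSO, from 0 to 24 for AD32 against A549 with DMSO, from 0 to 1 for AD32 against discodermolide, from 0 to 1 for AD32 4E-BP1 against AD32, and stayed at 0 for AD32 4E-BP1 against A549 with DMSO. The count of 2 came without A549 DMSO replicate 1 and the count of 24 without AD32 replicate 3, while leaving out A549 DMSO replicate 1 gave 10 for AD32 against A549 with DMSO. The median difference over the members ran from −3.24 to −2.13, from −3.25 to −1.25, from −0.89 to 1.22, from 1.79 to 3.85 and from −0.10 to 0.88 in the same order.

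The labels do not say whether replicate numbers pair the samples. Deviations of same-numbered arrays correlated at 0.68, −0.26 and 0.41 between AD32 and A549 with DMSO. With the discodermolide arrays they correlated at 0.08 and 0.10 for AD32 and at 0.06 and −0.06 for A549 with DMSO. These values do not settle whether the samples were paired. With the replicate number as a block, 0 members were called, with medians of −1.27 for discodermolide against DMSO, −1.80 for AD32 against A549 with DMSO and −0.50 for AD32 against discodermolide. The block changed no call, and AD32 4E-BP1 has no number. Of 2288 alternative values for the 26 genes given on every array, 2205 stayed on the same side of the threshold and 83 passed it where the reported value did not, 62 of these with array weights, 8 without A549 DMSO replicate 1 and 13 without AD32 replicate 3.

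Of the 2288 values 101 had the opposite sign of the reported one, 60 of them in AD32 against discodermolide, 34 in AD32 4E-BP1 against A549 with DMSO and 7 in AD32 against A549 with DMSO, and 0 of the 101 passed the threshold. In AD32 against discodermolide the member median was −0.15 with array weights, and the single genes were CCNA2 (−0.27), CCNB2 (−0.30), CDK1 (−0.26), PLK1 (−0.32), CDC20 (−0.41), UBE2C (−0.01), PTTG1 (−0.08), KIF11 (−0.03), KIF20A (−0.54), TPX2 (−0.03) and MKI67 (−0.35). With the block they were CCNA2 (−0.79), CCNB2 (−0.89), CDK1 (−0.72), PLK1 (−0.82), AURKB (−0.26), BUB1B (−0.03), MAD2L1 (−0.36), CDC20 (−0.84), UBE2C (−0.33), PTTG1 (−0.41), KIF11 (−0.50), KIF20A (−1.13), TPX2 (−0.46), MKI67 (−0.73) and FOXM1 (−0.27), and with median centring AURKA was at 0.01. With 1 replicate left out, the genes of that comparison whose sign changed ran over CCNA2 (−1.28 to 1.45), CCNB1 (−1.44 to 1.10), CCNB2 (−1.35 to 1.46), CDK1 (−1.04 to 1.02), PLK1 (−1.34 to 1.35), AURKA (−0.94 to 0.92), AURKB (−0.55 to 1.03), BUB1B (−0.37 to 1.98), MAD2L1 (−0.61 to 1.30), CDC20 (−1.11 to 0.72), UBE2C (−0.51 to 0.91), PTTG1 (−0.56 to 0.77), CENPF (−1.83 to 0.66), BIRC5 (−0.21 to 1.31), KIF11 (−0.84 to 1.27), KIF20A (−1.57 to 1.13), TPX2 (−0.76 to 1.22), DLGAP5 (−1.86 to 1.16), MKI67 (−1.21 to 1.00), TOP2A (−1.85 to 0.82), ANLN (−0.22 to 2.76) and FOXM1 (−0.92 to 1.87). In AD32 4E-BP1 against A549 with DMSO the member median was −0.07 with array weights, with CCNB1 (−0.39), CCNB2 (−0.57), CDK1 (−0.35), AURKA (−0.56), AURKB (−0.57), BUB1B (−0.21), MAD2L1 (−0.44), CDC20 (−0.25), UBE2C (−0.46), KIF11 (−0.20), DLGAP5 (−0.28), CKAP2 (−0.21), ECT2 (−0.27) and RACGAP1 (−0.07), and AURKB was at −0.02 with median centring. Leaving out 1 replicate gave CCNA2 (−0.10 to 1.02), CCNB1 (−0.35 to 0.88), CCNB2 (−0.50 to 0.64), CDK1 (−0.37 to 0.70), AURKA (−0.46 to 0.38), AURKB (−0.52 to 0.25), BUB1B (−0.15 to 1.13), MAD2L1 (−0.49 to 0.67), CDC20 (−0.20 to 0.82), UBE2C (−0.38 to 0.48), PTTG1 (−0.03 to 0.74), BIRC5 (−0.05 to 0.85), KIF11 (−0.28 to 0.90), DLGAP5 (−0.30 to 0.89), CKAP2 (−0.25 to 0.40), TOP2A (−0.03 to 0.82), ANLN (−0.04 to 1.32), ECT2 (−0.24 to 0.35) and RACGAP1 (−0.09 to 0.58), each lowest value being that without A549 DMSO replicate 1. In AD32 against A549 with DMSO, ECT2 was at 0.10 both with the block and with DMSO replicates 3 and 4 averaged, and with 1 replicate left out ECT2 ran from −0.49 to 0.17 and ANLN from −2.88 to 0.09. The direction of these differences is therefore not settled by these arrays.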
